A study of Mus musculus with 18 samples.

Results

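The effect of FGF2 on mouse primordial germ cell-like cells in culture was read from 4 of the series' 18 libraries, 2 labelled FGF2 and 2 labelled FR10, chosen by their titles alone. These cells (PGCLCs) are induced in vitro from pluripotent cells and resemble the embryo's earliest germ cells. All 4 libraries came from B6D2F1 cells carrying 2 reporters, Blimp1-mVenus and Stella-ECFP (BVSC). PGCLCs were sorted for mVenus on day 4, plated on mitomycin C-treated m220-5 feeder cells and cultured for 7 days, and the labels again give an mVenus sort for the cultured cells. The medium in the labels' protocol held stem cell factor (SCF), the ligand of the receptor KIT, with forskolin at 10 µM and rolipram, which raise cyclic AMP and are together abbreviated FR10. The dose of FGF2, and whether forskolin and rolipram stayed in the medium with it, is not stated in the labels. FGF10 and cyclosporin A (CsA) name 2 further cultures of the same age, with 2 libraries each. The labels call the 2 libraries of a condition biological replicates without saying which cultures they came from.

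Fibroblast growth factor 2 (FGF2) binds FGF receptors, which are receptor tyrosine kinases, and signals through RAS to the kinases RAF, MEK and ERK and through PI3K to AKT and mTOR. ERK activity induces transcription factors such as ETV4, ETV5 and MYC family members, and also phosphatases and adaptors, the DUSP, SPRY and SPRED proteins, that damp the cascade. In the culture of embryonic germ cells FGF2 is best known as the factor that, with SCF and LIF, lets germ cells convert into pluripotent embryonic germ cells.

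Expression was measured by SC3-seq, which reads transcript 3' ends, and deposited as RPM, the reads of a gene scaled to a fixed total per library. Reads inferred from the smallest RPM steps came to 2582402 and 2896485 in the FR10 libraries and to 2627850 and 4114871 in the FGF2 libraries. FGF2 replicate 2 stood apart in its number of detected genes. At an equal 2129399 reads it had 12261 genes above 0, beside 13150 in FGF2 replicate 1 and 13867 and 13974 in FR10. The 2 FGF2 libraries lay further apart, with a median absolute log2 difference over 9561 tested genes of 0.468, against 0.281 between the FR10 replicates. That difference does not show which of the 2 is unusual. Values without FGF2 replicate 2 are therefore given beside many of the results. The named genes whose calls remained without it are listed below, and the calls of the other named genes were lost. All 10 germ cell markers were detected in all 4 libraries, and their summed level was 3170 and 3370 RPM in FR10 and 2480 and 2200 RPM in FGF2. The most abundant in FR10, Dppa3, was at 1495 RPM in each FR10 library and 836 and 666 RPM in FGF2. Dazl, Nanos3 and Pou5f1 overlapped between the groups, and the other markers were lower in both FGF2 libraries. The 15 feeder and fibroblast markers summed to 218 and 184 RPM in FR10 and to 90.9 and 43.5 RPM in FGF2, with Lum and Thy1 at 0 in all 4, against 7.98 and 7.34 RPM in the sorted cells before culture. In such bulk RNA fewer cells of a type and less RNA per cell cannot be told apart.

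With FGF2, 845 of 9561 tested genes differed from FR10, 131 higher and 714 lower. Tested genes had at least 10 RPM in at least 2 of the 18 libraries, and the test was limma on log2(RPM + 1) with the spread shared by all 18, called at a Benjamini-Hochberg adjusted p under 0.05. These are 8.84% of tested genes, 1.37% higher and 7.47% lower, and they are the background for each count below. In all, 2764 genes had an unadjusted p under 0.05. The called changes ran from 3.39 to -3.83 on the log2 scale, and 95 of the higher and 596 of the lower genes were past 2-fold. For all 845 called genes the FGF2 and FR10 values did not overlap, as was so for 58.4% of all tested genes. The count was 75 (0.784%, 10 higher or 0.105% and 65 lower or 0.68%) without FGF2 replicate 2, of which 60 were among the 845, and 5 without FR10 replicate 1. It was 2 when only the 12 cultured libraries set the spread and 0, with 2059 genes at an unadjusted p under 0.05, when only the 4 libraries compared did. The median difference over all tested genes was -0.33. After median-ratio scaling between libraries that median was -0.03 and 542 genes (5.67%) were called, 284 higher (2.97%) and 258 lower (2.7%), of which 389 were among the 845. The excess of lower over higher calls therefore depends on the scaling. Of the 80 called genes named here, 54 were also called after that scaling. The 8 libraries cultured from PGCLCs alone kept 46 of these 80 calls, the 12 cultured libraries 2 and the 4 compared 0. Without FGF2 replicate 2 the calls of 14 remained: Kit, Sall1, Dnmt3l, Tcf4, Syne2, Prkar2b, Dmtf1, Galnt7, Mycn, Rheb, Scd1, Bcat1, Hspb1 and Tead4.

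**Figure D1:**
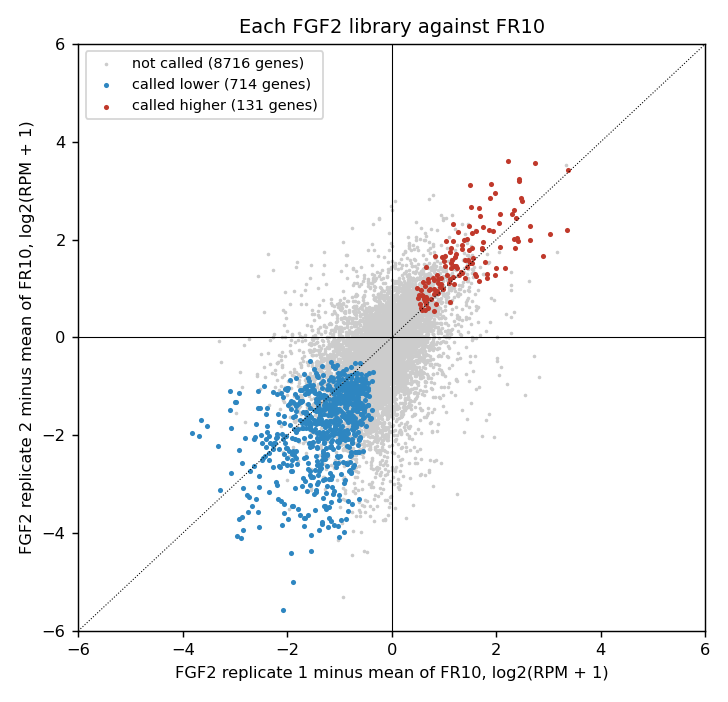
Each point is 1 of the 9561 tested genes, placed by its level in FGF2 replicate 1 (horizontal) and in FGF2 replicate 2 (vertical) minus the mean of the 2 FR10 libraries, in log2(RPM + 1), with genes called lower in blue and called higher in red. The median of the 714 genes called lower was -1.17 in replicate 1 and -1.65 in replicate 2, and that of the 131 called higher was 1.23 and 1.45.

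Promoter sequences of 3 genes that lead the results are shown, since Kit is the receptor for the SCF in the medium, Dnmt3l had the largest rise, and Bcat1 was also among the called genes without FGF2 replicate 2. They are RefSeq windows on GRCm38.p6, each from 250 bases before to 50 after an annotated start and read 5′ to 3′ on the gene's strand. The Kit window shown is chr5:75574737-75575036 on the plus strand. Kit has another annotated start, with the window chr5:75574741-75575040. The Dnmt3l window is chr10:78049592-78049891 on the plus strand, 1 of 3 annotated starts of that gene, with an E-box in capitals from base 207. The windows of the other Dnmt3l starts held no match to the motifs searched. The Bcat1 window is chr6:145076108-145076407 on the minus strand, with a match to the AP-1 motif in capitals from base 227. Bcat1 has another annotated start, whose window (chr6:145048763-145049062) held no match to the motifs searched.
Kit: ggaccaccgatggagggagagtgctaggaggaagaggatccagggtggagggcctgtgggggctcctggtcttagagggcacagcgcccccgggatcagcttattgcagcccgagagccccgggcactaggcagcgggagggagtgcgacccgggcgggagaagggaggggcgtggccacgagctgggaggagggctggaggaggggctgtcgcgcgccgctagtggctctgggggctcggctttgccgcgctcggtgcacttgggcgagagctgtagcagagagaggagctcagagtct
Dnmt3l: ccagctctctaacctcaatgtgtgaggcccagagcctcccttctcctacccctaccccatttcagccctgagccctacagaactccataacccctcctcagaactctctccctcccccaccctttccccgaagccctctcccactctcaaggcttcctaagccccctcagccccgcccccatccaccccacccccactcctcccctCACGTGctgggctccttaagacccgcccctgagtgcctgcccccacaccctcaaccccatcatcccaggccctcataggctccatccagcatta
Bcat1: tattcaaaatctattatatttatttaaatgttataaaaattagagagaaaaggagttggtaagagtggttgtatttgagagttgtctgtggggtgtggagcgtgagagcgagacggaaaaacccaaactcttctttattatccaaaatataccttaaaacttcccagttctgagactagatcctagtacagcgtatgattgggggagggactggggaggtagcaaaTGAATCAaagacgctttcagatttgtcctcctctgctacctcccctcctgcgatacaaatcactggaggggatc
Motifs were searched on both strands, TGACGTCA (cAMP response element), CCGGAAGT (ETS factors such as ETV4), CACGTG (E-box, bound by MYC family proteins) and TGANTCA (AP-1). None of them was in either Kit window. Of 32851 RefSeq promoter windows of this length, 1.79% held the cAMP response element, 3.89% the ETS motif, 7.15% the E-box and 7.81% the AP-1 motif. Among 138 windows of genes called higher, the shares were 2.17%, 4.35%, 13.8% and 7.97%. Among 722 windows of genes called lower they were 2.91%, 6.51%, 8.03% and 4.02%, and among 9938 windows of tested genes 3.43%, 8.83%, 10.7% and 4.44%. A match describes the sequence and is not evidence of binding.

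Genes of germ cell identity were led by Kit, which fell. Kit stood at 230 and 182 RPM in FR10 and at 43.4 and 48.1 RPM in FGF2. Both FGF2 libraries lay below every FR10, FGF10 and CsA value, a log2 change of -2.14 ± 0.25 (SE, adjusted p = 0.0007). Without FGF2 replicate 2 the change was -2.21 (adjusted p = 0.005). Sorted day 4 PGCLCs, before culture, had 297 and 308 RPM. Prdm1, which encodes the transcription factor BLIMP1 that specifies germ cells, was at 70.5 and 69.7 RPM in FR10 and 26.3 and 9.96 RPM in FGF2. Its change was -2.04 ± 0.43 (adjusted p = 0.016), and -1.38 without replicate 2 (adjusted p = 0.15). Because cells were sorted on a Prdm1 (Blimp1) reporter, the Prdm1 level is not independent of the sort. Dppa3, the gene of the second reporter (Stella), a maternal factor that protects the genome from demethylation, fell from 1495 RPM in each FR10 library to 836 and 666 RPM. The Dppa3 change was -1.001 ± 0.24 (adjusted p = 0.025), -0.84 without replicate 2 (adjusted p = 0.18) and -0.69 after median-ratio scaling (adjusted p = 0.071).

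Of 15 tested early germ cell genes these 3 were lower and none higher. All but 1 had a negative sign, and the list's median was -0.68 beside -0.33 for all tested genes, or -0.31 beside -0.20 without replicate 2. Tfap2c, a partner of PRDM1 in germ cell specification, was at 70.5 and 73.5 RPM in FR10 and 57.8 and 49.1 RPM in FGF2 (adjusted p = 0.28). Prdm14, the third factor of that set, gave -0.91 (adjusted p = 0.073). Nanos3, which keeps germ cells alive during migration, gave -0.09 and overlapped between groups. Of 13 later germ cell and piRNA genes 1 was lower: Asz1, a piRNA pathway protein of the mitochondrial surface, had 28.3 and 14.5 RPM in FR10 and 4.57 and 0 RPM in FGF2 (adjusted p = 0.024). Dazl, an RNA-binding protein that rises as germ cells mature, was abundant in all 4, at 724 and 881 RPM in FR10 and 954 and 844 RPM in FGF2 (adjusted p = 0.91). Ddx4, the germ cell helicase, was at 85.6 and 73.5 RPM in FR10 and 45.3 and 21.1 RPM in FGF2 (adjusted p = 0.14).

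**Figure D2:**
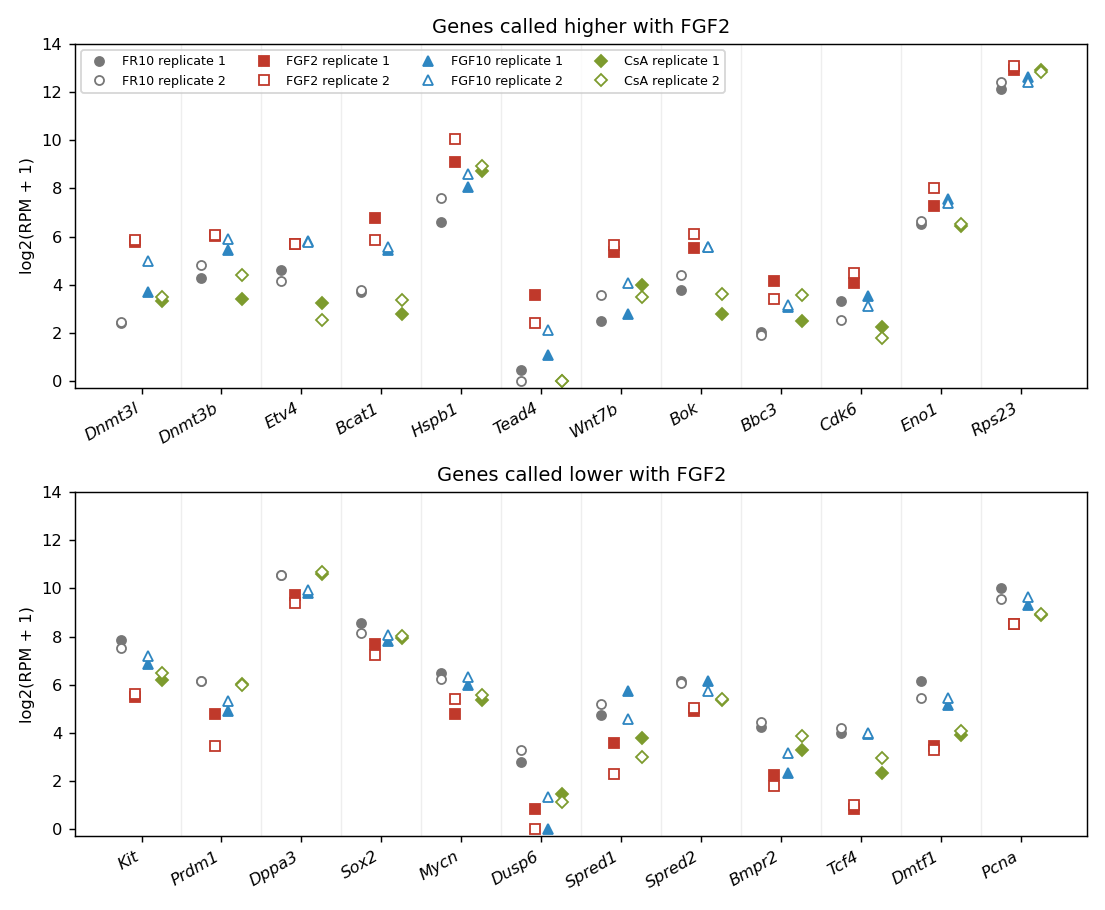
Levels of 12 genes called higher (top) and 12 called lower (bottom) in each of the 8 libraries cultured for 7 days, as log2(RPM + 1), with filled symbols for replicate 1 and open symbols for replicate 2. Kit and Tcf4 in the 2 FGF2 libraries lie below all 6 others, and Dnmt3l in FGF2 lies above all 6.

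DNA methylation genes moved in both directions. Dnmt3l, the cofactor that activates the de novo methyltransferases and that germ cells use when they set new methylation, was at 4.26 and 4.49 RPM in FR10 and 54.4 and 56.4 RPM in FGF2. That is a log2 change of 3.39 ± 0.58 (adjusted p = 0.0071), and 3.37 without replicate 2 (adjusted p = 0.046). Day 4 PGCLCs had 0.939 and 0.386 RPM of Dnmt3l. Dnmt3b, a de novo methyltransferase, rose from 18.6 and 26.9 to 64.7 and 65.9 RPM, by 1.503 ± 0.32 (adjusted p = 0.015, and 0.078 without replicate 2). Uhrf2, a relative of the maintenance factor UHRF1, fell from 112 and 116 to 54.4 and 44.7 RPM (adjusted p = 0.011, and 0.080 without replicate 2). Tet1, which oxidises methylcytosine, fell from 146 and 155 to 104 and 82.4 RPM (adjusted p = 0.045), a call lost after median-ratio scaling (adjusted p = 0.22). The other 10 of the 14 tested genes were not called. After median-ratio scaling 3 genes of this list were higher and 1 lower, and its median went from -0.07 to 0.22. Among 14 genes of histone H3 lysine 9 methylation 4 were lower and none higher: Kdm3b and Jmjd1c, of the demethylase family, Suv39h1, a methyltransferase, and Cbx1, which binds the mark. That list's median was -0.81, with Kdm3b at -1.27, Jmjd1c at -2.47, Suv39h1 at -1.65 and Cbx1 at -0.86. None of these 4 was called without FGF2 replicate 2, and after median-ratio scaling Jmjd1c was lower and Ehmt2, another methyltransferase, higher (adjusted p = 0.036 and 0.044).

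Calls among pluripotency genes differed by list. The naive list had 0% called, the core list 18.2% and the formative and primed list 26.7%, beside 8.84% of all tested genes. None of 18 naive pluripotency genes was called by limma (4 had an unadjusted p under 0.05, and voom called 1) and their median was -0.05. After median-ratio scaling limma called 2 higher, Klf4 and Dppa5a, and the median was 0.22. Klf4, a naive factor, was higher in each FGF2 library, at 24.0 and 25.3 RPM against 5.81 and 11.4 RPM, and missed the threshold in RPM as deposited (1.48 ± 0.49, adjusted p = 0.065) but passed it after median-ratio scaling (1.76, adjusted p = 0.043). Dppa5a, an RNA-binding protein of pluripotent cells, gave 0.53 (adjusted p = 0.072) and 0.85 (adjusted p = 0.033) on these 2 scales. Pou5f1, the OCT4 gene, was at 306 and 402 RPM in FR10 and 384 and 452 RPM in FGF2 and overlapped between groups (adjusted p = 0.41). Of 11 core pluripotency genes 2 were lower. Sox2 fell from 382 and 280 to 206 and 150 RPM (-0.89 ± 0.24, adjusted p = 0.035), and the call was lost without replicate 2 (adjusted p = 0.27). Sall1, a zinc finger factor, fell from 11.2 and 6.90 to 0.761 and 0.729 RPM (-2.49 ± 0.42, adjusted p = 0.0066) and was also lower without replicate 2 (adjusted p = 0.041). Of 15 formative and primed epiblast genes 2 were higher, the Dnmt3l and Dnmt3b just given, and 2 lower. One of the lower, the epiblast factor Otx2, was at 3.87 and 5.18 RPM in FR10 and 0.761 and 0.729 RPM in FGF2, which is 25 reads against 5. The other, the cadherin gene Cdh2, was at 6.58 and 6.56 RPM in FR10 and 0 and 2.43 RPM in FGF2 (adjusted p = 0.0498). Neither of the lower calls remained after median-ratio scaling.

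Calls in the FGF pathway differed by list. None of 7 tested FGF ligands and none of 15 receptors, coreceptors and adaptors was called by limma or voom, with 3 and 2 at an unadjusted p under 0.05. Fgfr1, a receptor that binds FGF2, was at 136 and 98.4 RPM in FR10 and 72.3 and 73.6 RPM in FGF2 (-0.66 ± 0.24, adjusted p = 0.089). Fgfr2 overlapped, at 84.8 and 57.3 RPM in FR10 and 97.4 and 53.5 RPM in FGF2. Fgf2 transcripts were at 0 in all 4 libraries, where 3 reads would be 0.729 to 1.16 RPM. Within the RAS to ERK cascade, 1 of 22 genes was lower and 1 higher (9.09% called, beside 8.84% of all tested genes). Voom called 4 of the 22, and 11 had an unadjusted p under 0.05 in limma. Braf, a RAF kinase, was at 46.5 and 39.4 RPM in FR10, 16.4 RPM in FGF2 replicate 1 and 2.19 RPM in FGF2 replicate 2 (adjusted p = 0.012, and 0.077 without replicate 2). Rasgrp2, an activator of small GTPases, rose from 42.6 and 35.2 to 88.7 and 92.6 RPM (1.21 ± 0.27, adjusted p = 0.019). The median of the cascade was -0.64, and -0.41 without replicate 2.

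Among the feedback inhibitors of the cascade, 3 of 16 were lower and none higher, with 14 of 16 signs negative. Their median was -0.86 with both replicates, -0.59 without replicate 2 and -0.58 after median-ratio scaling. Dusp6, the phosphatase that acts on ERK, had 5.81 and 8.63 RPM in FR10 and 0.761 and 0 RPM in FGF2, which is 40 reads against 2 (24.6-fold, 95% counting interval 6.38 to 210). It was also low in the FGF10 and CsA libraries, between 0 and 1.74 RPM. Spred1, an inhibitor of RAF activation, was at 25.9 and 35.2 RPM in FR10 and 11.04 and 3.89 RPM in FGF2 (-2.03 ± 0.44, adjusted p = 0.017). Its relative Spred2 fell from 69.3 and 65.9 to 28.5 and 32.1 RPM (-1.13 ± 0.27, adjusted p = 0.022). None of these 3 calls remained without FGF2 replicate 2, with adjusted p from 0.079 to 0.16. Dusp4, a phosphatase of the nucleus, was at 103 and 121 RPM in FR10 and 144 and 113 RPM in FGF2 and overlapped (adjusted p = 0.61).

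Transcription factors induced by FGF and ERK split. Etv4 was at 23.6 and 16.6 RPM in FR10 and 51.0 and 51.3 RPM in FGF2, a change of 1.33 ± 0.40 (adjusted p = 0.047, and 0.20 without replicate 2). Its relative Etv5 stood at 180 and 189 RPM in FR10 and at 149 and 89.7 RPM in FGF2 (-0.67 ± 0.28, adjusted p = 0.13). Mycn, a MYC family member, fell from 87.9 and 73.9 to 26.6 and 40.8 RPM (-1.26 ± 0.23, adjusted p = 0.0095), with a change of -1.56 without replicate 2 (adjusted p = 0.013). Ier5, an immediate early gene, fell from 38.7 and 26.2 to 7.23 and 4.37 RPM (-2.31 ± 0.50, adjusted p = 0.017). These 3 were the calls among 15 tested factors.

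In the PI3K, AKT and mTOR group, 4 of 23 genes were lower and 1 higher. Rheb, the small GTPase that activates mTOR complex 1, fell from 255 and 210 to 107 and 96.5 RPM (-1.18 ± 0.18, adjusted p = 0.0031), and by 1.11 without replicate 2 (adjusted p = 0.030). Mtor, the kinase, fell from 192 and 169 to 104 and 102 RPM (-0.80 ± 0.20, adjusted p = 0.027). Rictor, a subunit of mTOR complex 2, gave 36.8 and 36.3 RPM in FR10 and 11.4 RPM in each FGF2 library. Rps6kb1, the S6 kinase downstream of mTOR, fell by 1.24 (adjusted p = 0.026). The 1 higher gene was Eif4ebp1, a translation repressor that mTOR phosphorylates, at 292 and 441 RPM in FR10 and 510 and 631 RPM in FGF2 (adjusted p = 0.039), named after its values were seen. Of 11 genes of SCF, LIF and BMP signalling the 3 called were all lower, Kit together with 2 BMP receptors. Bmpr2 was at 17.8 and 21.1 RPM in FR10 and 3.81 and 2.43 RPM in FGF2 (-2.33 ± 0.47, adjusted p = 0.012). Bmpr1a fell from 88.3 and 71.1 to 47.6 and 23.3 RPM (-1.22 ± 0.32, adjusted p = 0.032). After median-ratio scaling 2 genes of the mTOR group were lower and 1 higher. Without replicate 2 the calls of Mtor, Rictor, Eif4ebp1, Rps6kb1, Bmpr2 and Bmpr1a were lost.

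**Figure D3:**
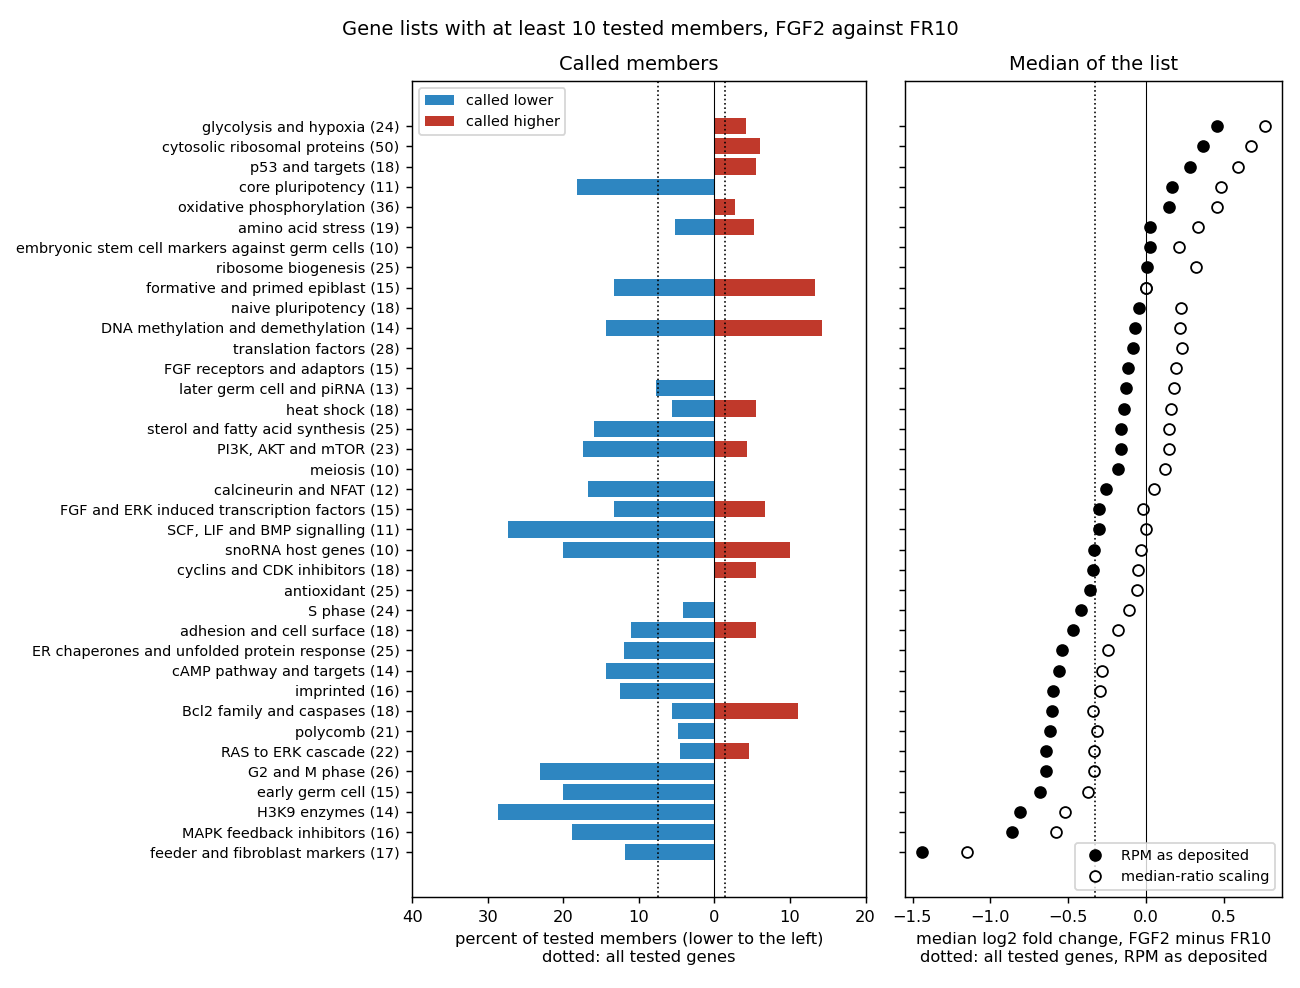
Left, percent of tested members called lower (blue, to the left) and higher (red, to the right) in each gene list with at least 10 tested members, given in parentheses. Right, the list's median log2 fold change in RPM as deposited (filled) and after median-ratio scaling (open), with dotted lines for all tested genes. The feeder list lies lowest, with a median of -1.44.

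Of the cell cycle lists, that of G2 and M phase held most of the lower calls in RPM as deposited. Of 26 genes of G2 and M phase 6 were lower and none higher, 25 had a negative sign, and the median was -0.64 (-0.45 without replicate 2). Bub1, a checkpoint kinase, fell from 228 and 211 to 134 and 85.3 RPM (-1.03 ± 0.20, adjusted p = 0.010). Top2a, the topoisomerase of dividing cells, fell from 642 and 540 to 403 and 315 RPM (-0.72 ± 0.18, adjusted p = 0.028). Aurkb and Nusap1, both of the mitotic spindle, gave -0.85 and -1.0003. Without replicate 2 none of the 6 was called, and after median-ratio scaling 1 was. Of 24 S phase genes 1 was lower and none higher, with a median of -0.42 beside -0.33 over all tested genes, and -0.11 after median-ratio scaling, when 1 was lower and 1 higher. The gene lower in RPM as deposited was Pcna, the DNA polymerase clamp, which fell from 1035 and 751 to 363 and 369 RPM (-1.27 ± 0.23, adjusted p = 0.0094, and 0.056 without replicate 2). Cdk6, a G1 kinase, was the 1 gene called among 18 cyclins, kinases and inhibitors, and it rose from 8.91 and 4.83 to 16.0 and 21.6 RPM (adjusted p = 0.037). That list's median was -0.34, and -0.05 after median-ratio scaling.

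Death and survival genes included 2 higher and 1 lower of 18. Bbc3, the p53-induced killer PUMA, was at 3.10 and 2.76 RPM in FR10 and 16.7 and 9.48 RPM in FGF2 (1.80 ± 0.46, adjusted p = 0.029). Bok, another death-promoting BCL2 relative, rose from 12.8 and 20.0 to 45.3 and 67.8 RPM (1.73 ± 0.50, adjusted p = 0.042). Xiap, a caspase inhibitor, was at 43.4 and 50.8 RPM in FR10 and 22.5 and 7.05 RPM in FGF2 (adjusted p = 0.044). Each of these 3 calls was lost without replicate 2, and that of Xiap also after median-ratio scaling (adjusted p = 0.068).

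Glycolysis, oxidative phosphorylation and ribosomal protein genes had positive list medians, and all their calls in RPM as deposited were higher. The shares were 4.17%, 2.78% and 6%, beside 1.37% of all tested genes called higher. More were called after median-ratio scaling, when 2.97% of all tested genes were higher. On that scale 4 glycolysis, 6 oxidative phosphorylation and 8 ribosomal protein genes were higher and none lower, and voom called 2, 2 and 8. Of 24 glycolysis and hypoxia genes 1 was higher, Eno1, an enolase, which rose from 91.0 and 99.4 to 151 and 258 RPM (1.05 ± 0.30, adjusted p = 0.042). The list's median was 0.45 with both replicates and 0.12 without replicate 2. Of 36 oxidative phosphorylation genes 1 was higher (Atp5d, 0.57), with a median of 0.15. Of 50 cytosolic ribosomal protein genes 3 were higher (Rps23, Rpl12 and Rpl35), 44 had a positive sign and the median was 0.36. Rps23 was at 4471 and 5466 RPM in FR10 and 7810 and 8757 RPM in FGF2 (0.74 ± 0.19, adjusted p = 0.027). The ribosomal median was 0.27 without replicate 2 and, against the same FR10 libraries, 0.36 in CsA and 0.09 in FGF10. Genes of the endoplasmic reticulum and its unfolded protein response had 3 of 25 lower, among them Hspa5, the chaperone BiP, at 257 and 288 RPM in FR10 and 147 and 112 RPM in FGF2 (-1.08 ± 0.31, adjusted p = 0.043). The others were Hsp90b1, a chaperone, and Syvn1, a ubiquitin ligase of protein quality control. After median-ratio scaling none of this list was lower and 1 was higher, and voom called 0, with 11 at an unadjusted p under 0.05 in limma.

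Among all tested genes, whether in a list or not, the largest rises and falls were mostly of genes with few reads on 1 side. Bcat1, which transaminates branched-chain amino acids, stood at 12.0 and 12.8 RPM in FR10 and 108 and 57.1 RPM in FGF2. Its change was 2.57 ± 0.35 (adjusted p = 0.0018), and 3.02 without replicate 2 (adjusted p = 0.0029). Hspb1, the small heat shock protein HSP27, stood at 97.2 and 191 RPM in FR10 and 540 and 1058 RPM in FGF2, by 2.46 ± 0.39 (adjusted p = 0.0050, and 0.047 without replicate 2). Of 18 tested heat shock genes 1 was higher and 1 lower, with a median of -0.145. After median-ratio scaling 1 was higher and none lower, with a median of 0.162. Tead4, a transcription factor of the Hippo pathway, had 1 read in FR10 and 47 in FGF2 (38.2-fold, 95% counting interval 6.53 to 1540). Wnt7b, a WNT ligand, rose from 4.65 and 10.7 to 40.3 and 48.6 RPM (adjusted p = 0.022). Tcf4, a basic helix-loop-helix factor that is not the WNT effector of that nickname, had 89 reads in FR10 and 6 in FGF2 (18.3-fold, 95% counting interval 8.06 to 51.1). In RPM that is 15.1 and 17.3 in FR10 and 0.761 and 0.972 in FGF2, with an adjusted p of 0.0007, and of 0.0029 without replicate 2. Prkar2b, a regulatory subunit of the cyclic AMP-dependent kinase, had 84 reads in FR10 and 4 in FGF2 (25.8-fold, interval 9.73 to 97.1). Syne2, which links the nucleus to the cytoskeleton, had 79 and 3. Dmtf1, a MYB-like factor, fell from 70.9 and 42.1 to 9.89 and 8.75 RPM (-2.43 ± 0.29, adjusted p = 0.0008).

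Among the largest falls were genes that connective tissue cells express. Col3a1, a fibrillar collagen, had 68.9 and 31.8 RPM in FR10 and 10.3 and 0 RPM in FGF2 (adjusted p = 0.031). Cxcl12, the chemokine that attracts germ cells and is made by surrounding cells, had 20.9 and 20.0 RPM in FR10 and 1.90 and 0.243 RPM in FGF2 (adjusted p = 0.019). Cxcl12 was also present in cells not plated on these feeders. It was at 2.82 and 13.3 RPM in sorted day 4 PGCLCs and at a mean of 37.0 RPM in the EpiLC (epiblast-like cell) libraries. Of 17 tested feeder and fibroblast genes 2 were lower and none higher, and 2 had a positive sign. The median was -1.44, and -0.71 without replicate 2. After median-ratio scaling 2 of these genes were lower and 1 higher, with a median of -1.15. Their level also varied between replicates of the other cultures: the 15 markers summed to 267 and 40.7 RPM in FGF10 and to 173 and 43.2 RPM in CsA. B2m, a component of MHC class I, followed a similar order, at 119 and 90.5 RPM in FR10, 23.6 and 6.32 RPM in FGF2 and 92.7 and 28.1 RPM in FGF10. The part of feeder RNA in the other falls was not tested.

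Transcript length moved with the comparison. Genes called lower had a median transcript length of 3658 bases and a GC content of 45.6%, genes called higher 2085 bases and 56.0%, and all tested genes 3120 bases and 50.0%. In 5 equal groups of genes ordered by length, from shortest to longest, the median FGF2 minus FR10 difference was -0.03, -0.24, -0.34, -0.44 and -0.55. FGF2 replicate 1 alone went from -0.03 in the shortest to -0.37 in the longest group. The difference between the 2 FGF2 replicates, which share a condition, went from 0.03 to -0.28, and that between the FR10 replicates from 0.06 to -0.03. Against the same FR10 libraries the longest group was at -0.35 in CsA and -0.17 in FGF10. The part of length in the single-gene results was not tested.

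**Figure D4:**
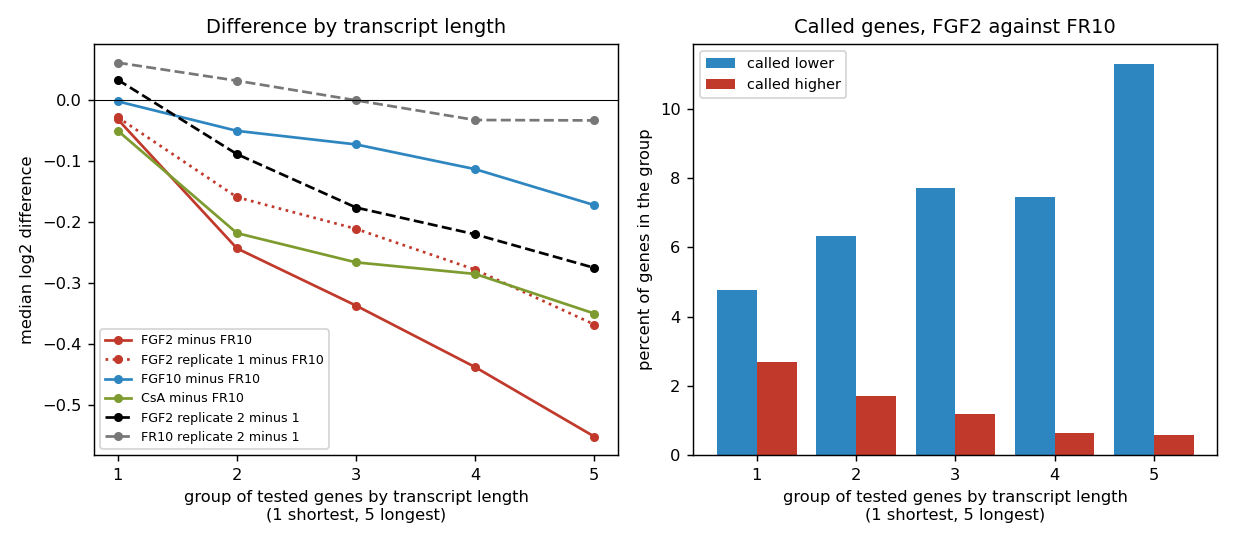
Left, median log2 difference in each of 5 equal groups of tested genes by transcript length, for 3 cultures against FR10 (solid), FGF2 replicate 1 alone (dotted) and replicate differences (dashed). Right, percent of genes in each group called lower and higher with FGF2. Lower calls went from 4.76% in the shortest to 11.3% in the longest group, and higher calls from 2.68% to 0.589%.

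The FGF2 libraries were also compared directly with the other additives. Against FGF10, 9 genes were called, all lower in FGF2 and all among the 714 (0.0941% of tested genes), and 1587 genes had an unadjusted p under 0.05. They were Tcf4, Kit, Dmtf1, Galnt7, Rheb, Moap1, Ccdc152, Alkbh8 and Lefty2. Kit stood at 114 and 145 RPM in FGF10, a difference of -1.47 ± 0.25 (adjusted p = 0.041), and Tcf4 at 14.5 and 14.7 RPM, a difference of -3.06 ± 0.36 (adjusted p = 0.0015). Galnt7, which encodes an O-glycosylation enzyme, had 29.3 and 26.6 RPM in FGF10 and 6.85 and 6.32 RPM in FGF2 (adjusted p = 0.015). Of the genes higher with FGF2, none was called against FGF10. Dnmt3l in FGF10 was at 11.9 and 30.6 RPM (adjusted p = 0.22), Bcat1 at 42.6 and 46.2 RPM (adjusted p = 0.26) and Etv4 at 55.6 and 53.5 RPM (adjusted p = 0.93). The difference in Dnmt3l was 1.48 ± 0.58, which did not pass the threshold with 2 libraries a group.

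Against CsA, 280 genes were called, 121 higher (1.27%) and 159 lower (1.66%) in FGF2, 2.93% of tested genes. They held 45 of the 131 genes called higher and 121 of the 714 called lower against FR10, all in the same direction, in comparisons that share the FGF2 libraries. Bcat1 was at 5.79 and 9.37 RPM in CsA (3.24 higher in FGF2, adjusted p = 0.0003), Etv4 at 8.39 and 4.83 RPM (2.82, adjusted p = 0.0022) and Dnmt3b at 9.55 and 19.9 RPM (2.16, adjusted p = 0.0028). Hsp90b1 and Hspa5, chaperones of the endoplasmic reticulum, were lower in FGF2. Hsp90b1 was at 848 and 918 RPM in CsA and 336 and 262 RPM in FGF2, a difference of -1.57 (adjusted p = 0.0003), and Hspa5 at 660 and 697 RPM in CsA (-2.39, adjusted p = 0.0012). Kit, at 71.8 and 89.4 RPM in CsA, was not called between the 2 additives (-0.80 ± 0.25, adjusted p = 0.084). Over the 714 genes called lower with FGF2 the median was -1.46 in FGF2, -0.42 in FGF10 and -0.55 in CsA, each against the same FR10 libraries. Over the 131 called higher it was 1.42, 0.68 and 0.33. FGF2 values chose these genes, so the order of the medians is a description.

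**Figure D5:**
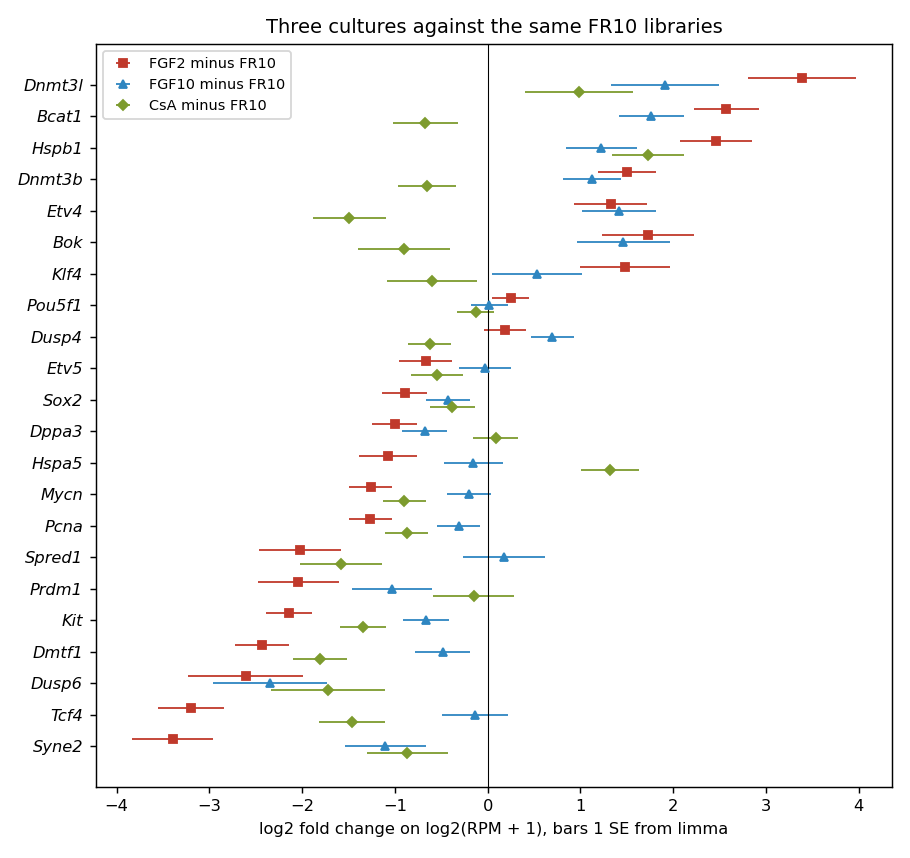
Log2 fold change against the same 2 FR10 libraries for FGF2 (squares), FGF10 (triangles) and CsA (diamonds), with bars of 1 standard error from limma. Tcf4 lies at -3.20 in FGF2 and -0.14 in FGF10, and Etv4 at 1.33 in FGF2, 1.42 in FGF10 and -1.49 in CsA.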

How the data were processed

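The deposited values are RPM per gene in 18 libraries, 2 in each of 9 groups. Per the submitters' processing notes the authors used cutadapt 1.3, TopHat 1.4.1, Cufflinks 2.2.0 and the mouse genome mm10. How strand and multiply mapped reads were handled is not given in the sources used here. Of 34896 genes listed, 46 were blank. Reads were inferred from the RPM worth of 1 read, and 32 to 56 values per library far below that worth were set to 0. Amplification duplicates were not marked, so intervals cover counting error only, as do floors of 3 reads.

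RPM values were tested as log2(RPM + 1) for the 9561 genes with at least 10 RPM in at least 2 libraries. limma 3.58.1 (R 4.3.3) was fitted with a mean per group over all 18 libraries, which share 1 estimate of the spread with 9 residual degrees of freedom, with a mean-variance trend and Benjamini-Hochberg adjustment over all tested genes. A gene was called at an adjusted p under 0.05. Fold changes understate the change of low genes. The script was tested on simulated data. The 42 gene lists (889 genes, 877 in the files, 701 tested) and the genes compared were chosen with earlier results of these data known.

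Named genes were the 15 largest called changes in each direction without predicted or small RNA genes, up to 4 called and 3 uncalled members of each list by p, a fixed panel, and the 5 genes of smallest p in each direction against FGF10 and CsA. Not all of them are printed. Transcript lengths are those of the longest coding transcript in GENCODE M21, which matched 97.6% of tested genes. Alternatives changed the pseudocount, filter, scaling, weights, libraries in the fit, replicate block and tool (limma voom on inferred reads).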

Additional observations from a re-analysis of the deposited data

How the results depend on the processing

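The number of genes called depended on the filter, on the scaling and on which libraries set the shared spread. For FGF2 against FR10 (845) it was 440 without a filter, 542 with median-ratio scaling, 447 with the 8 libraries cultured from PGCLCs, 2 with the 12 cultured libraries and 0 with the 4 compared. Leaving out 1 library gave 5 to 1722, the lowest without FR10 replicate 1 and the highest without FGF2 replicate 1. In 2 alternatives chosen after seeing the data, 2289 genes were called without both E9.5c5 replicate 2 libraries (embryonic germ cells after culture), which had few detected genes, and 1094 when FGF2 replicate 2 was left out as well.

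Against FGF10 (9) the counts were 14 with a pseudocount of 0.1 RPM, 41 without a filter, 3 with median-ratio scaling, 15 with the replicate block, 1 with array weights, 0 with voom and 0 in each of the 3 smaller sets of libraries. They were 600 and 180 in the 2 added alternatives and 1 to 708 with 1 library left out. Against CsA (280) they were 149 without a filter, 165 with a filter at 50 RPM, 109 with array weights, 121, 3 and 0 in the sets of 8, 12 and 4 libraries, 1089 and 500 in the added alternatives, and 13 to 988 with 1 library left out.

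With the replicate number as a block 885 genes were called against FR10 (814 of the 845) and 296 against CsA. Deviations of same-numbered FR10 and FGF2 libraries correlated at 0.1 over genes, with only 2 pairs, so the numbers are not taken to pair the cultures. None of the 80 called genes named changed sign in any alternative. Their FGF2 and FR10 values did not overlap, so only median-ratio scaling and voom could have changed a sign. Among uncalled genes, Nanos3 turned positive with median-ratio scaling (0.21), without FR10 replicate 2 (0.37), and without FGF2 replicate 2 (0.17, with or without the E9.5c5 libraries). With 1 library left out it ranged from -0.56 to 0.37. Fgfr2 turned negative without FR10 replicate 2 (-0.23) and without FGF2 replicate 1 (-0.38), in a range from -0.38 to 0.48. The causes were not tested. Of the calls against FR10, 95 of 131 higher and 596 of 714 lower were past 2-fold, and the folds of genes with a few reads are limited by counting error.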

Other observations

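Further gene groups were compared between the FGF2 and FR10 libraries, beside the 1.37% of tested genes called higher and 7.47% called lower. Of 25 sterol and fatty acid synthesis genes 4 were lower and none higher, with a median of -0.16 beside -0.33 over all tested genes. After median-ratio scaling 1 was lower, Stard4, and the median was 0.15, and voom called 2. Scd1, a fatty acid desaturase, was at 9.29 and 10.7 RPM in FR10 and 0.381 and 3.40 RPM in FGF2 (-2.15 ± 0.57, adjusted p = 0.031). Its relative Scd2 changed by -1.19, the sterol carrier Stard4 by -2.46 and the cholesterol synthesis enzyme Nsdhl by -1.002. Of 14 genes of the cyclic AMP pathway and its targets 2 were lower, Prkar2b and Creb1. Creb1, a transcription factor that protein kinase A activates, was at 30.6 and 16.9 RPM in FR10 and 8.75 and 2.19 RPM in FGF2 (-2.09 ± 0.45, adjusted p = 0.017), and 0.16 was its adjusted p without replicate 2. Of 12 calcineurin and NFAT genes 2 were lower: Ppp3r1, the regulatory subunit of calcineurin, gave -2.31 and Nfat5, a factor of the osmotic response, gave -2.201.

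Imprinted genes had 2 of 16 lower and none higher. Phlda2, a growth restrainer of the placenta, fell from 29.4 and 36.3 to 14.5 and 13.1 RPM (-1.19 ± 0.24, adjusted p = 0.013), and Plagl1, a zinc finger factor, was at 5.42 and 3.80 RPM in FR10 and at 0 in both FGF2 libraries. Among 18 adhesion and cell surface genes, Itga5, the fibronectin receptor subunit, rose from 3.49 and 7.94 to 16.7 and 29.6 RPM (1.88 ± 0.45, adjusted p = 0.023). Cd24a, a surface glycoprotein, fell from 49.2 and 22.8 to 9.51 and 9.23 RPM (-1.74 ± 0.33, adjusted p = 0.010). Of 10 snoRNA host genes 1 was higher, Snhg12, and 2 were lower, Snhg14 and Snhg4. After median-ratio scaling 1 imprinted gene was lower and 1 higher, and 1 snoRNA host gene was higher and none lower. Of 19 amino acid stress genes Nupr1, a stress-induced nuclear protein, was higher (1.90) and Psph, the last enzyme of serine synthesis, lower (-1.20), a call lost after median-ratio scaling (adjusted p = 0.10). No gene was called by limma among 10 meiosis genes, 28 translation factors, 25 ribosome biogenesis genes or 25 antioxidant genes, where 0, 9, 6 and 8 had an unadjusted p under 0.05. Voom called 1 of the translation factors and none of the other genes in these lists. After median-ratio scaling limma called 3 ribosome biogenesis genes and 1 antioxidant gene higher, and none in the other 2 lists.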
